A study of Mus musculus with 6 samples.

Results

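The mouse T-cell receptor loci Tcra, Tcrb and Tcrg were examined in a list of accessible chromatin intervals (peaks) from the Beko line of mouse T-cell progenitors, in which Notch signaling is always on. Members were the peaks whose centre lay in fixed windows of the mm9 build, which were chr14:53000000-54870000 for Tcra with the Tcrd segments inside it, chr6:40800000-41550000 for Tcrb and chr13:19150000-19500000 for Tcrg. The windows held 100 of the 32527 peaks of the list, of which 54 lay in Tcra, 30 in Tcrb and 16 in Tcrg. The immunoglobulin heavy chain locus Igh (chr12:114400000-117300000), which B cells rearrange, served as the contrast and held 16 peaks.

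The peaks come from ATAC-Seq, in which a transposase inserts adapters into open chromatin. There were 6 libraries, of which 3 came from cells given DAPT for 24 h, an inhibitor of γ-secretase (GSI) that blocks Notch activation, and 3 from cells given the solvent DMSO alone for the same time. The labels give the DAPT dose as 10 mg/ml and the methods of the study as 10 µg/ml. All 6 libraries were from the same cell line, and the labels do not say whether the replicates were separate cultures. The list is a single merged one for both treatments, with no value per library, so no replicate error can be given, GSI against DMSO was not analysed here, and library depth was not used. Intervals below cover counting error only.

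T-cell receptor genes are assembled during thymocyte development, when the RAG recombinase joins variable (V), diversity (D) and joining (J) segments next to a constant (C) gene. The β and δ chains use V, D and J segments, and the α and γ chains V and J segments. Recombination signals beside each segment guide the cut, and enhancers near the constant genes are known to control both transcription and the access of the recombinase. V promoters lie just upstream of each V segment. DNA between joined segments is usually deleted from the chromosome, so a closed segment and a deleted segment both give no peak and cannot be told apart in a peak list.

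The sequences at the centre of the peaks beyond the constant genes are shown first, because these peaks lie in the intervals where the α, β and γ enhancers are known. Each run is the 300 bp around the middle of the peak, read 5′ to 3′ on the strand of the constant gene from the mm9 reference. Capitals mark letters of known factor motifs on either strand, which were TGGGAA for RBPJ, TGTGGT for RUNX, CAGCTG for a first E-box, CAGGTG for a second E-box, AGGAAG for ETS factors, AGATAA for GATA factors, CTTTGA for TCF/LEF and TGACGT for the cyclic AMP response element (CRE). Motifs may share letters, as the RUNX and E-box letters do in the α run.
α, 3′ of Trac (chr14:54847249-54847548, plus strand): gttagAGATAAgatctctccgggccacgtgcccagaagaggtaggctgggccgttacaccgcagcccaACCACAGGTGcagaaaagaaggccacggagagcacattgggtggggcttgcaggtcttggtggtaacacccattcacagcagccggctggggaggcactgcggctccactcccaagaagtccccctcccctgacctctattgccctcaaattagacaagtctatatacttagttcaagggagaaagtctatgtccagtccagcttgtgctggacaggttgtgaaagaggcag
β, 3′ of Trbc2 (chr6:41504398-41504697, plus strand): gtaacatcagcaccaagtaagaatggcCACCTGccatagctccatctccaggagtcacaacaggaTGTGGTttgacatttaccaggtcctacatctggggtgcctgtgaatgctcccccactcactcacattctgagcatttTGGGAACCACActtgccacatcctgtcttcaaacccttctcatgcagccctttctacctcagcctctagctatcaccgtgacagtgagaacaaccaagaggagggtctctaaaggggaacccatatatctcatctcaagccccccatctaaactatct
γ, 3′ of Trgc1 (chr13:19311458-19311757, plus strand): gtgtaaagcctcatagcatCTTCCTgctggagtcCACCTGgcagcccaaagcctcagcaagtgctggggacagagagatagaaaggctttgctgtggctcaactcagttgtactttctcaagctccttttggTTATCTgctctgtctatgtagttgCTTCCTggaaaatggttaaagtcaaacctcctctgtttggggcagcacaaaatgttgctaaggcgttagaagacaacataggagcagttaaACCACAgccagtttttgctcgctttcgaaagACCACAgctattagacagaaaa
γ, 3′ of Trgc3 (chr13:19364604-19364903, plus strand): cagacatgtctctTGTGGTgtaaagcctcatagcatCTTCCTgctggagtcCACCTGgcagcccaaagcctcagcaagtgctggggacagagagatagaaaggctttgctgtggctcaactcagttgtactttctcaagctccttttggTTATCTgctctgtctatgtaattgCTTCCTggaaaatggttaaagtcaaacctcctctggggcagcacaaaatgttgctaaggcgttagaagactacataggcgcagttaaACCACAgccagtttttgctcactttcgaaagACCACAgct
γ, 3′ of Trgc2 (chr13:19392458-19392757, minus strand): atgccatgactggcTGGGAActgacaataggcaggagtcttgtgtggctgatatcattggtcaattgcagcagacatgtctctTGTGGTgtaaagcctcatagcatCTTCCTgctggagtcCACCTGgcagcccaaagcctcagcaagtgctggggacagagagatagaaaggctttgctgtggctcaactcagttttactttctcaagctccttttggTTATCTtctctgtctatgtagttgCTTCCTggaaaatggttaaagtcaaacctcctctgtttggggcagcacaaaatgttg
γ, 3′ of Tcrg-C (chr13:19448529-19448828, plus strand): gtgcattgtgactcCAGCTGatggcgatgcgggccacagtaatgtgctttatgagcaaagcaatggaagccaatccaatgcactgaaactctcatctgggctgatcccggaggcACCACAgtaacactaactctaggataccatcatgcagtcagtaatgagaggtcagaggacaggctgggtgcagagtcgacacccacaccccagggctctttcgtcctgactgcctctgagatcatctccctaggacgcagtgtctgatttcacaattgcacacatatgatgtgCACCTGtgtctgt

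The runs 3′ of Trgc1, Trgc3 and Trgc2 are copies of each other, and the capitals they share fall in the same order. Each holds 2 ETS matches, 1 GATA match and 1 CAGGTG match, with 2, 3 and 1 RUNX matches. The windows are cut at different points of the shared sequence, so the runs do not show whether these copies differ in RUNX or RBPJ matches. The run 3′ of Trgc2, which starts further upstream in that sequence, also holds the RBPJ letters, and so does the β run. Neither the α run nor the run 3′ of Tcrg-C holds them. A match describes the letters in this window and is not a mapped binding site.

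The recombination signals of 6 segments are shown next, because signals under a peak were found at V segments of the Tcra window and of Tcrb and at no D or J segment. Signals were searched within 10 bp of the end of each segment as a heptamer near CACAGTG and a nonamer near ACAAAAACC, 12 or 23 bp apart with 1 bp of slack, and were accepted with at least 11 of the 16 letters. Capitals mark the heptamer and the nonamer, each run is read from the heptamer outward, and the segments were picked as examples after their values were seen.
Trdv2-1 (chr14:54566336-54566374, plus strand): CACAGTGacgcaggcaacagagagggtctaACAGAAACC
Trbv5 (chr6:41012803-41012841, plus strand): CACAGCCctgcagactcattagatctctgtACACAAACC
Trgv4 (chr13:19277376-19277414, plus strand): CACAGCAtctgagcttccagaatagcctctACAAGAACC
Trbd1, 3′ side (chr6:41483212-41483250, plus strand): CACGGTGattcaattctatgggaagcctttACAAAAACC
Trbj2-7 (chr6:41493781-41493808, minus strand): CACAGAGgctcaaccccacACACAAACC
Trgj1 (chr13:19302184-19302211, minus strand): CACAGTGctcacagcttctACAAAAATC

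The signals of Trdv2-1 and Trbv5 lay under a peak, and those of Trgv4, Trbd1, Trbj2-7 and Trgj1 did not. Over the whole loci, 15 of the 105 signals found at V segments of the Tcra window and 9 of the 21 at Trbv segments lay under a peak. None of the 7 found at Trgv segments did. No signal of a D or J segment lay under a peak, among 4 D and 48 J signals found in the Tcra window, 4 D and 10 J signals in Tcrb and 4 J signals in Tcrg.

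All 3 T-cell receptor loci carried more peaks per Mb than the rest of the list, while Igh carried fewer. Tcra carried 28.9 peaks per Mb (95% Poisson interval 21.7 to 37.7), Tcrb 40 (27.0 to 57.1) and Tcrg 45.7 (26.1 to 74.2). The whole list carried 12.3 per Mb of chromosome length, so the ratio to the rest of the list was 2.36 for Tcra (95% exact interval 1.77 to 3.08), 3.27 for Tcrb (2.2 to 4.66) and 3.73 for Tcrg (2.13 to 6.06). Igh carried 5.52 per Mb (3.15 to 8.96), a ratio of 0.450 (0.257 to 0.731). Against Igh the ratios were 5.23 (2.95 to 9.80) for Tcra, 7.25 (3.83 to 14.2) for Tcrb and 8.29 (3.88 to 17.7) for Tcrg.

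Most Tcra peaks lay in duplicated sequence. The V part of Tcra contains large duplicated blocks, whose V segments carry d or n in their names, and 42 of the 54 Tcra peaks (77.8%) had a further, near-identical copy in the build, meaning a match over 80% or more of the peak's length with at least 95% identity when gaps count as differences. Such copies were found for 0 of 30 Tcrb peaks, 2 of 16 Tcrg peaks and 671 peaks (2.06%) of the list. The authors kept 1 alignment per read, so reads that fit several copies equally well were assigned to 1 of them. With all peaks that have such a copy left out, Tcra held 12 peaks or 6.42 per Mb against 12 per Mb in the list, and Tcrg 14 peaks or 40 per Mb. The duplicated DNA was not taken out of the length. How far read assignment bears on the Tcra peaks was not tested.

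**Figure D1:**
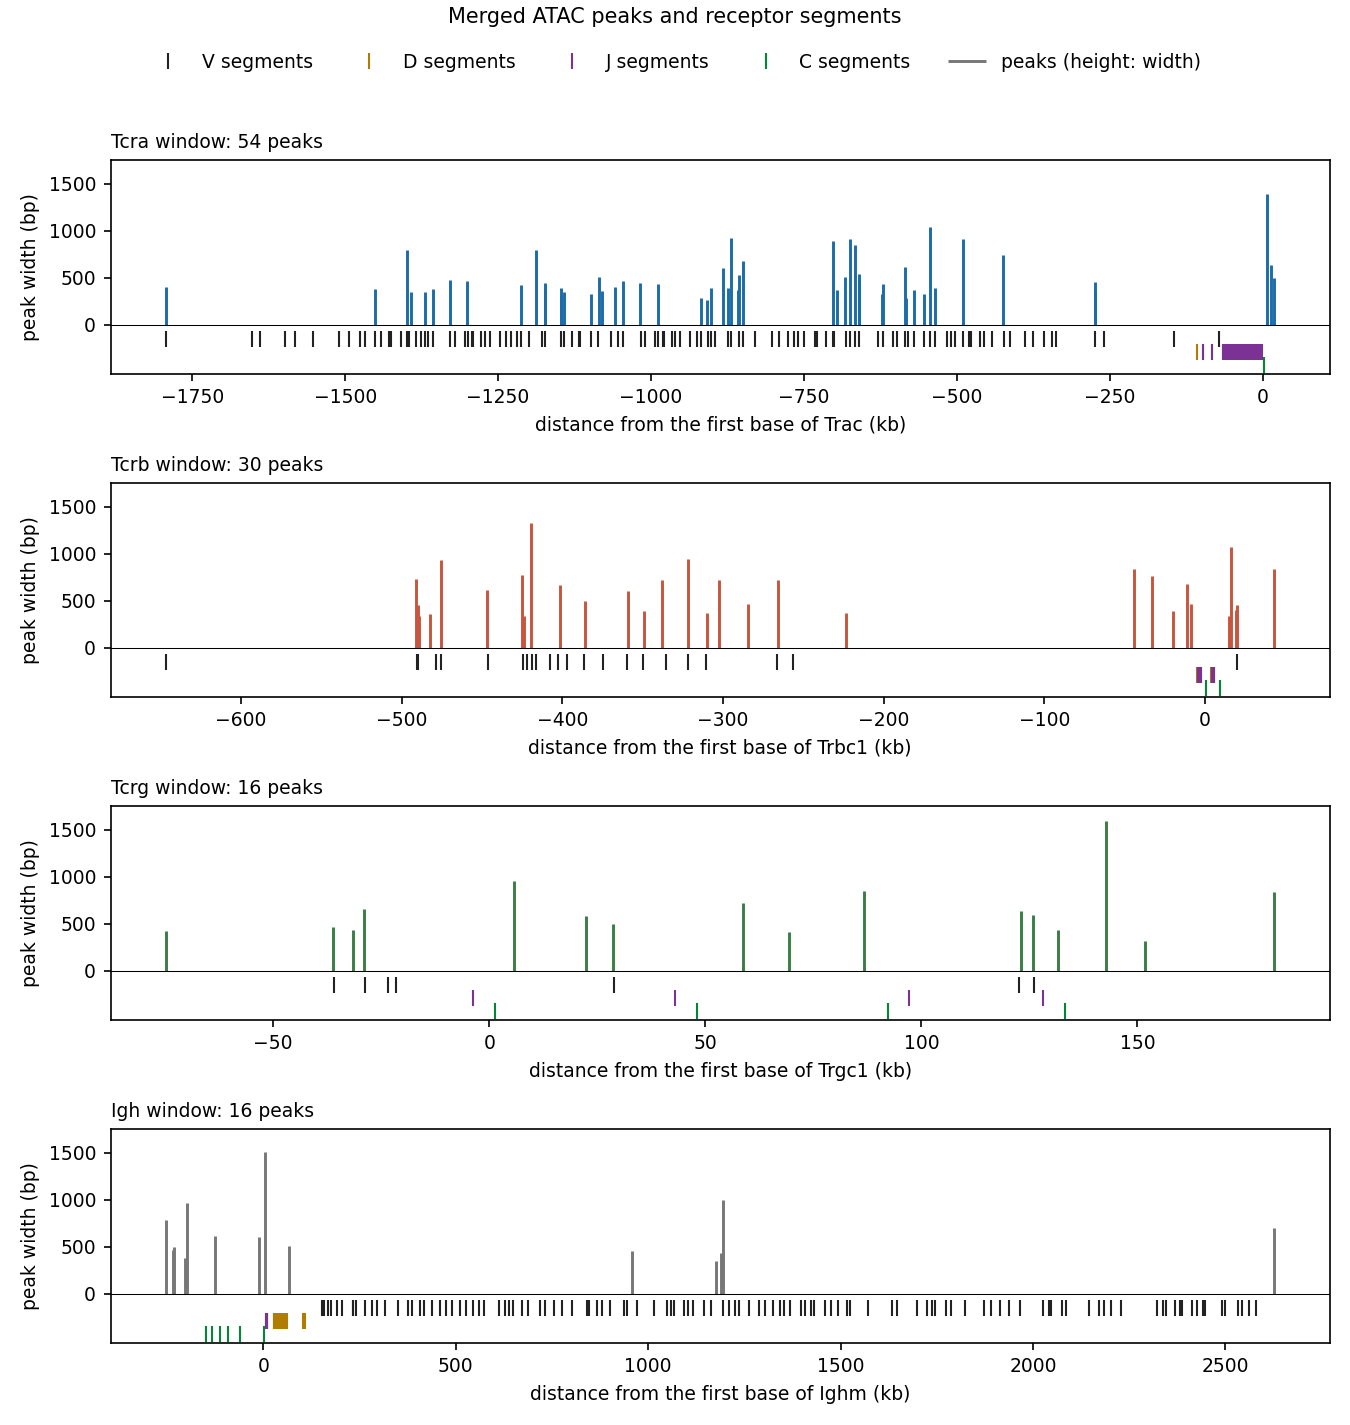
Peaks (vertical lines, height in bp of peak width) and annotated V, D, J and C segments (ticks) in the 54 Tcra, 30 Tcrb, 16 Tcrg and 16 Igh peak windows, by distance in kb from the first base of Trac, Trbc1, Trgc1 or Ighm. Peaks lie among the V segments of the T-cell receptor loci and beyond their constant genes, with none over the J segments, and the Igh V segments are nearly bare.

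The lineage of the cells was checked at other genes. Of 10 T-lineage genes, 9 had a peak within 1 kb of an annotated start, Ptcra (the pre-T-cell receptor α chain), Lck, Thy1, Bcl11b, Tcf7 and Gata3 among them, and the nearest peak to Cd3d lay 1119 bp away. By the same measure 47.1% of protein-coding genes had a peak. Of 7 B-lineage genes, 1 had such a peak, the surrogate light chain gene Vpreb1. Cd79a, Cd79b, Pax5, Ebf1, Igll1 and Ms4a1 had none, and the nearest peak to Igll1 lay 1218 bp away.

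V segments had peaks in all 3 receptor loci, at 54 of 144 annotated segments (37.5%, 95% Wilson interval 30 to 45.6) when a peak within 1 kb was counted. The share was 36 of 114 (31.6%, 23.8 to 40.6) in the Tcra window, 13 of 23 (56.5%, 36.8 to 74.4) in Tcrb and 5 of 7 (71.4%, 35.9 to 91.8) in Tcrg. In Igh it was 1 of 116 (0.862%, 0.152 to 4.72), a difference from the T-cell receptor loci of 36.6 percentage points (95% Newcombe interval 28.2 to 44.8). As background, 43.9% of the 22372 protein-coding genes outside these segments had a peak within 1 kb of their 5′ end. The same V segments were counted when the distance was taken from the 5′ end of each V segment, so the Tcra share and its interval lay below that background, and the Tcrb and Tcrg intervals included it. V segments of a family share sequence and are not replicates.

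J segments had no peak. None of 61 J segments in the Tcra window, 14 in Tcrb and 4 in Tcrg lay within 1 kb of a peak, which is 0 of 79 (95% Wilson interval up to 4.64%). The nearest J segment to any peak was Trgj4, 1981 bp away, and the median distance was 30888 bp. The 4 D segments had none either. Of 7 C genes, Tcrg-C had a peak, and its annotated span starts within Trgj4, so that it includes the DNA between the J segment and the constant exons.

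**Figure D2:**
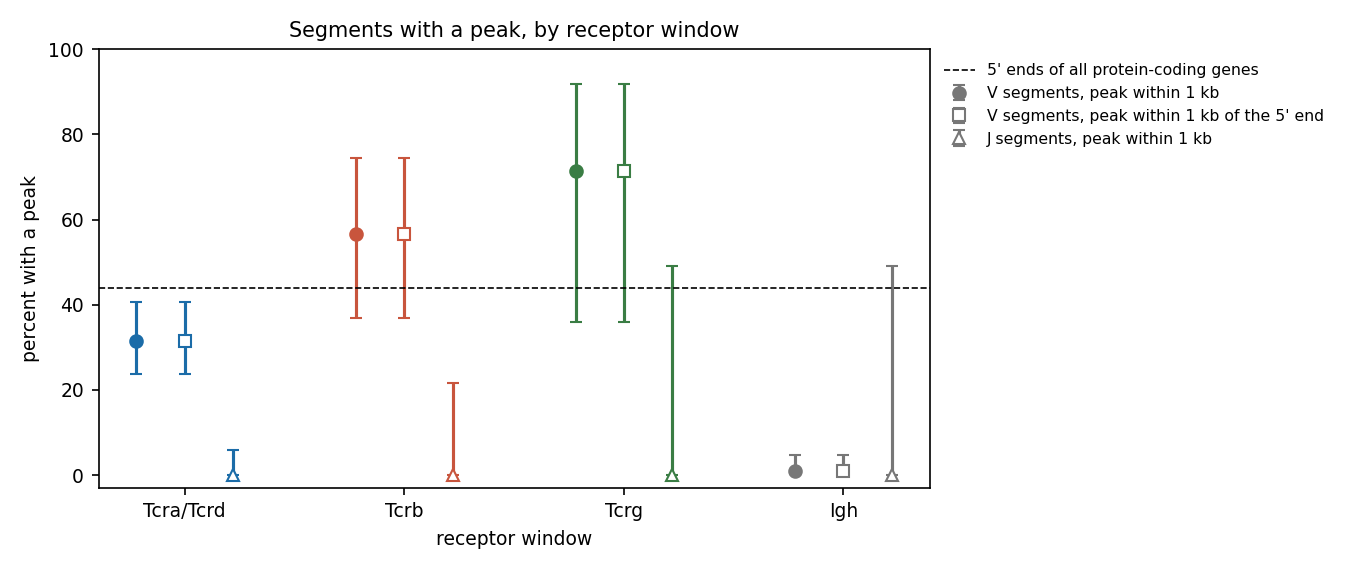
Percent of V segments with a peak within 1 kb (circles), of V segments with a peak within 1 kb of their 5′ end (squares) and of J segments with a peak within 1 kb (triangles), by receptor window, with 95% Wilson intervals. The dashed line is the 43.9% of protein-coding genes with a peak at the 5′ end, and J segments sit at 0 in all 4 windows.

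In Tcra the V segments with peaks were spread over the duplicated blocks. Peaks were found at 9 of 32 segments with d names (28.1%), 9 of 25 with n names (36.0%) and 14 of 46 with plain names (30.4%), and the Wilson intervals of these shares overlapped. V segments known by an annotation name only are in none of these groups. Among them Tcra-V2.6, Gm10904 and Gm16837 had a peak, and Tcra-V22.1, Gm13980 and Tcra-V8 had none. None of the 5 segments from Trav17 to Trav21, the Trav segments nearest to the joining end, had a peak, and with so few segments the Wilson interval of that share reaches 43.4%. Trav1, the most distal segment, had a peak of 405 bp over its 5′ end. V segments without a near-identical copy had peaks at 6 of 21 (28.6%) and those with a copy at 30 of 93 (32.3%). Across all 3 loci, 2 of 6 V pseudogenes and 52 of 138 other V segments had a peak.

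Members of a duplicated set often differed. Of 31 sets of annotated Trav segments that share a number and differ only in the letter d, n or none, 3 had a peak at every annotated copy, 12 at none and 16 at some copies only. Segments known by an annotation name only were left out of these sets and of the family counts below. Trav15-1 had a peak at each of its 3 copies, and Trav13-1 and Trav9-3 at both of the 2 copies annotated for each. In contrast, Trav9-4 had a peak at the plain copy only, with the nearest peak 23478 bp from the d copy and 7380 bp from the n copy. Among 22 pairs of d and n copies, 4 had a peak at both, 13 at neither and 5 at 1 of them. Because reads of such copies can be placed at either, these differences are those of the list. Families varied as well, with 7 of 10 Trav13 and 4 of 6 Trav15 segments having a peak against 1 of 8 Trav12 and 1 of 10 Trav7 segments.

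The 10 Tcra V segments with the widest peaks are named here with the width of that peak. Trav9-4 had the widest at 1037 bp (chr14:54295324-54296360), which is also the second widest in the Tcra window. Next came Gm16837, a V segment known by its annotation name only, at 918 bp, Trav13-3 at 912 bp, Trav13-1 at 908 bp, Trav6-6 at 893 bp and Trav14-1 at 849 bp. Trav6d-6 had a peak of 795 bp, Trav13-5 of 746 bp, Trav14n-3 of 675 bp and Trav13-2 of 617 bp. For Trav13-5 and Trav14n-3 the peak had no near-identical copy. The δ segment Trdv2-1 was the 1 of 5 Trdv segments with a peak, and 3 peaks of 365, 459 and 264 bp stood within 1 kb of it.

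In Tcrb, V segments with a peak were Trbv2, Trbv3, Trbv5, Trbv10, Trbv12-1, Trbv12-2, Trbv16, Trbv19, Trbv20, Trbv23, Trbv26, Trbv29 and Trbv31. The widest was that at Trbv12-2 (chr6:41068238-41069567, 1330 bp), which ran past both ends of the segment and is also the widest in the Tcrb window. Trbv23 had a peak of 944 bp, Trbv5 of 932 bp and Trbv12-1 of 776 bp. Segments without a peak were Trbv1, Trbv4, Trbv13-1, Trbv13-2, Trbv13-3, Trbv14, Trbv15, Trbv17, Trbv21 and Trbv30. Trbv14 lay just outside the limit, 1131 bp from a peak of 668 bp, and Trbv1, which stands apart upstream, lay 154739 bp from the nearest. Trbv31, the inverted segment beyond the constant genes, had a peak at each end, of 399 and 452 bp.

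In Tcrg, Trgv7, Trgv4, Trgv3, Trgv2 and Trgv1 each had a peak, of 464, 657, 499, 633 and 590 bp. Trgv5 and Trgv6, which lie side by side, were 7088 and 5023 bp from the nearest peak. Between the peaks at Trgv7 (chr13:19269512-19269975) and Trgv4 (chr13:19276558-19277214) lay a further peak of 430 bp (chr13:19274117-19274546), 3756 bp from Trgv7 and 2304 bp from Trgv4.

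The position of the V peaks differed between the loci. In Tcrg the peak covered the annotated 5′ end of the segment, near which the V promoter lies, at 5 of 5 segments. It covered the 3′ end, beside the recombination signal, at none. In Tcra the peak covered the 5′ end at 24 of 36 segments and the 3′ end at 15, with 9 covered at both ends and 6 at neither. In Tcrb it was the reverse, with the 3′ end covered at 11 of 13 segments and the 5′ end at 6. The centre of the nearest peak lay at a median of -108 bp from the 5′ end in Tcrg, -2.5 bp in Tcra and 397.5 bp in Tcrb, where a negative value is upstream. It lay upstream at 4 of 5 Trgv, 19 of 36 Tcra window and 3 of 13 Trbv segments. Where several peaks overlapped a segment, the first in the list was taken as the nearest. At Trbv3, Trbv12-1, Trav16d-dv11, Trav15-1-dv6-1 and Trdv2-1, which were counted as upstream, a further peak covered the 3′ end. At Trbv31, which was counted as downstream, a further peak covered the 5′ end. The Tcra and Tcrb medians and these counts therefore depend on that choice. These are counts over segments with no test, and annotated segments differ in length, so their 5′ ends may not be the same point.

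**Figure D3:**
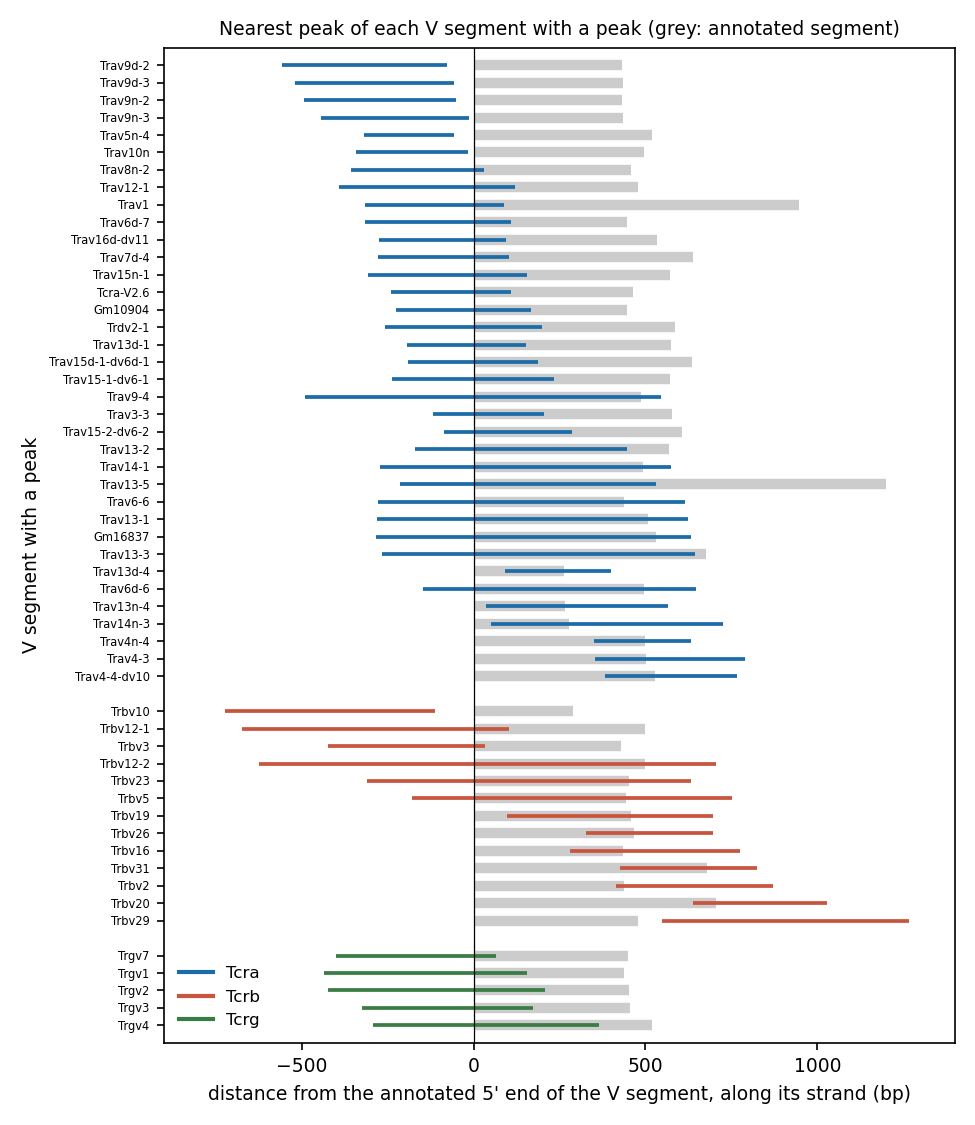
Extent of the nearest peak of each V segment with a peak in Tcra (36), Tcrb (13) and Tcrg (5), in bp along the strand of the segment from its annotated 5′ end, with the annotated segment in grey (cut off on the right where long). Where several peaks overlap a segment, the first in the list is drawn. Trgv peaks lie over the 5′ end, Trbv peaks mostly reach past the 3′ end, and Trav peaks do either.

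Segments of a family could have their peaks at the same side or not. At Trav9d-2, Trav9d-3, Trav9n-2 and Trav9n-3 the peak ended 78, 56, 52 and 12 bp upstream of the segment. At Trav4n-4, Trav4-3 and Trav4-4-dv10 it began inside the segment and ran past the 3′ end, with its centre 491.5, 571 and 574 bp from the 5′ end. The peaks of these 7 segments had near-identical copies. Trav9-4, by contrast, had a peak over both ends, and the peak covered only the 5′ end at Trav13d-1 and only the 3′ end at Trav13n-4. However, Trav13n-4 (chr14:53983511-53983777) is annotated shorter than Trav13d-1 (chr14:53470965-53471540). Likewise, Trav9d-2 (chr14:53511861-53512293) is annotated shorter than Trav9-4 (chr14:54295816-54296304). The annotated 5′ ends within a family may therefore not be the same point. Trbv20 and Trbv29 had the most downstream centres of all, at 833.5 and 907 bp.

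Of the peaks away from V segments in Tcra, 10 lay between annotated V segments, and some of these were also copied with their block. The peaks between Trav7d-6 and Trav8d-2 (793 bp) and between Trav7n-6 and Trav8n-2 (606 bp) had near-identical copies over other peaks. In the plain block the peak at Trav13-3 has matching neighbours, Trav7-6 and Trav8-2. Whether such places hold V segments missing from the annotation was not tested. The peak of 346 bp that lies 3619 bp after Trav11d (chr14:53448206-53448551) and the peak of 375 bp that lies 3584 bp after Trav11 (chr14:54143118-54143492) had a copy at 100% identity. In Tcrb 9 peaks lay between segments or genes, and their median width of 720 bp was above the 548.5 bp of the 16 peaks at Trbv segments. Among these, 3 stood between the trypsinogen genes Prss1 and Prss2, at chr6:41443655-41444492 (838 bp), chr6:41455143-41455903 (761 bp) and chr6:41468070-41468457 (388 bp).

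At the joining and constant end of Tcra, the interval of 12.4 kb between Trac and the next gene, Dad1, holds the α enhancer. It contained 2 peaks. That at chr14:54846703-54848096 began 3931 bp past Trac and was 1394 bp wide, the widest in the Tcra window and wider than 96.7% of the list. The other, at chr14:54852730-54853365, was 636 bp wide, and its 300 bp held 2 RBPJ and 2 ETS matches. Upstream of Trac, no peak was called over 280.3 kb (chr14:54566425-54846702), which hold 3 V, 2 D and 61 J segments and Trac itself. The interval of 11.8 kb between Trdj2 and Trdv5, where the δ enhancer is known, and that of 5.80 kb between Trdv5 and Traj61, where the TEA promoter directs early Traj transcription, lie in this stretch and had 0 peaks each. Trdc was not analysed here. For the part of the stretch upstream of Trac, rearrangement of both alleles and lack of accessibility cannot be told apart here.

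At the Tcrb end, the interval of 9.51 kb between Trbc2 and Trbv31, which holds the β enhancer, contained 2 peaks. The wider, chr6:41504012-41505084, began 5832 bp past Trbc2 and was 1073 bp wide, more than 88.8% of the list, and a narrow peak of 341 bp lay 5200 bp past Trbc2 (chr6:41503380-41503720). Upstream of Trbd1, 2 more lay at chr6:41477033-41477709 (677 bp) and chr6:41479484-41479944 (461 bp), and the nearer ended 3256 bp before Trbd1, with no peak closer to the promoter of Trbd1. Between these peaks and the narrow one past Trbc2, both D-J-C clusters were without a peak. The stretches from Trbj1-7 to Trbc1, from Trbc1 to Trbd2 and from Trbj2-7 to Trbc2 had 0 peaks each.

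Tcrg held 7 of its 16 peaks (43.8%, 95% Wilson interval 23.1 to 66.8) at the D-J-C ends, against 2 of 54 in Tcra (3.70%, 1.02 to 12.5) and 4 of 30 in Tcrb (13.3%, 5.31 to 29.7), here meaning peaks with a D, J or C segment as a neighbour and no V segment within 1 kb. It has 4 constant genes, and a peak stood 3′ of each. The peak 3′ of Trgc1 (chr13:19311132-19312084, 953 bp) was 2645 bp away, that 3′ of Trgc3 (chr13:19364394-19365115, 722 bp) 9128 bp, that 3′ of Trgc2 on the other strand (chr13:19392185-19393031, 847 bp) 3898 bp and that 3′ of Tcrg-C (chr13:19447881-19449478, 1598 bp) 3669 bp. The last is the widest peak of all 3 loci, wider than 98.6% of the list, and it also ends 68 bp from the 3′ end of the neighbouring gene Stard3nl. The other 3 peaks of the Tcrg ends were at chr13:19327990-19328573 (584 bp), at chr13:19375040-19375455 (416 bp) between Trgc3 and Trgc2, and at chr13:19437433-19437868 (436 bp) inside the span of Tcrg-C. The first lay 19503 bp past Trgc1 and 6141 bp before Trgv3. V segments also lie between constant genes in Tcrg, so a peak counted at these ends can be nearer to a V segment.

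The peaks 3′ of Trgc1, Trgc3 and Trgc2 are close relatives, as their runs above show. Where they aligned best, over 722 bp with gaps left out, the peaks of Trgc1 and Trgc3 were 98.9% identical. The peak of Trgc2 was 94.2% identical to that of Trgc1 over 798 bp and 96.2% to that of Trgc3 over 709 bp. The peak of Tcrg-C shared 72.1% to 75.8% identity with the others over 392 to 452 bp. Over its whole width and with gaps counted, the peak of Trgc2 had 91.4% identity with the Trgc1 copy and 89.7% with the Trgc3 copy, so it was not among the Tcrg peaks counted as near-identical. Reads of the first pair could therefore be placed at either, and the list alone does not show that each of the copies was open.

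The widths of the peaks give the only size in the list. Median widths were 435 bp in Tcra, 606 bp in Tcrb and 587 bp in Tcrg, against 551 bp over the list. Peaks over 1 kb were rare, with 2, 2 and 1 in the 3 loci, and 4777 (14.7%) in the list. All of them stood at a V segment or at a D-J-C end. In Tcra, the 2 peaks of the D-J-C end were wider than the median of 437 bp at V segments, and in Tcrg the median was 722 bp at the D-J-C ends and 590 bp at V segments.

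**Figure D4:**
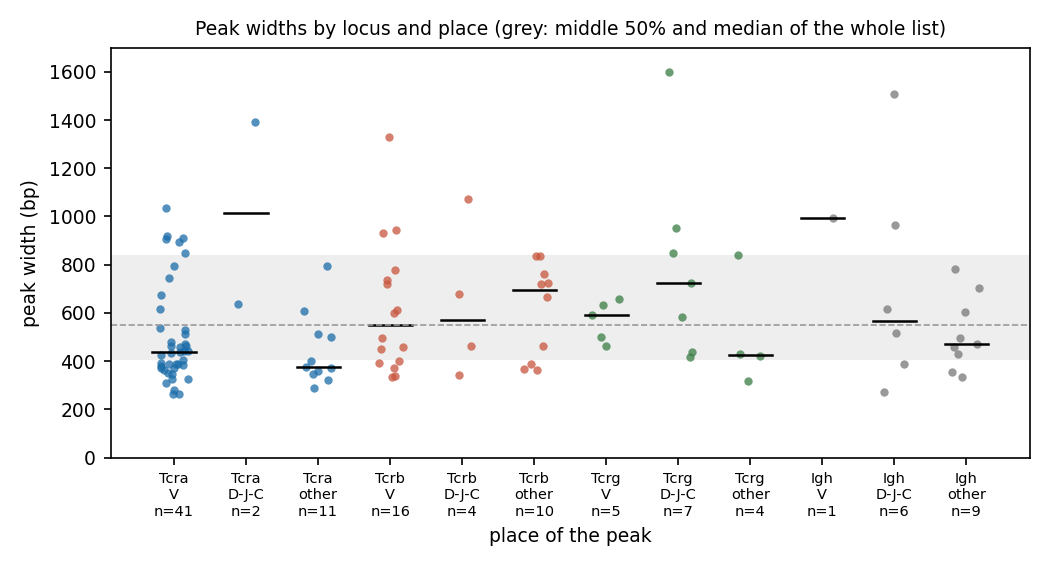
Width in bp of each peak (points) by locus and by place, at a V segment, at the D-J-C end or elsewhere, with the median of each class (black line), and the quartiles (410 to 835 bp, grey) and median (551 bp, dashed) of the whole list. Most Tcra V peaks lie below the list median, and the widest peaks of Tcra and Tcrg lie at the D-J-C ends.

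The peaks of the receptor loci were less GC-rich than the list, with a median GC content of 47.4% in Tcra, 45.9% in Tcrb and 46.2% in Tcrg against 52.6%. Motifs were counted in the 300 bp at the centre of each peak, on both strands. The RUNX letters were found in 40 of 100 peaks (95% Wilson interval 30.9 to 49.8%) against 26.2% of the list, and the GATA letters in 20 (13.3 to 28.9%) against 10.4%. ETS letters were found in 54 (44.3 to 63.4%) against 42.8%, CAGGTG in 42 (32.8 to 51.8%) against 31.0% and CAGCTG in 37 (28.2 to 46.8%) against 27.7%. For ETS the loci differed, with 23 of 54 peaks in Tcra (42.6%, near the list), 20 of 30 in Tcrb (66.7%) and 11 of 16 in Tcrg (68.8%). Over the whole width of the peaks, the intervals for RUNX, ETS and CAGGTG included the share of the list, and for CAGGTG that of the central 200 bp did so too. The letters of the recombination heptamer, CACAGTG, were in 18 (11.7 to 26.7%) against 9.42%. The SP letters GGGCGG, common in GC-rich promoters, were in 5 (2.15 to 11.2%) against 29.4%. For TCF/LEF, CRE and the CTCF core the intervals included the share of the list, which was 18.5%, 5.89% and 6.85%. In Igh, RUNX letters were in 6 of 16 peaks (37.5%), and ETS and CAGGTG letters in 8 of 16 each (50%). These shares were close to those of the T-cell receptor loci. GATA letters were in 2 of 16 Igh peaks (12.5%) and CAGCTG in 1 of 16 (6.25%). Tcra peaks share copied sequence and were counted each, so the shares of the T-cell receptor loci are not over independent regions.

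RBPJ, through which Notch acts, is the factor the study followed. Its letters were in 19 of the 100 receptor peaks (12.5 to 27.8%) and in 22.7% of the list, and in the central 200 bp the order turned, with 16 of 100 against 15.3%. The loci differed, with 4 of 54 peaks in Tcra (7.41%, 2.92 to 17.6), 10 of 30 in Tcrb (33.3%, 19.2 to 51.2) and 5 of 16 in Tcrg (31.2%, 14.2 to 55.6). By place they were in 11 of the 62 peaks at V segments and in 4 of the 13 at the D-J-C ends. At these 13 peaks CAGGTG was found in 9, RUNX and ETS in 8 each and GATA in 4. The peaks 3′ of Trgc1, Trgc3 and Trgc2 are copies of each other and each held all of these motifs, so the 13 are not independent regions. The recombination heptamer was in 14 of the 62 V peaks and 1 of the 13.

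**Figure D5:**
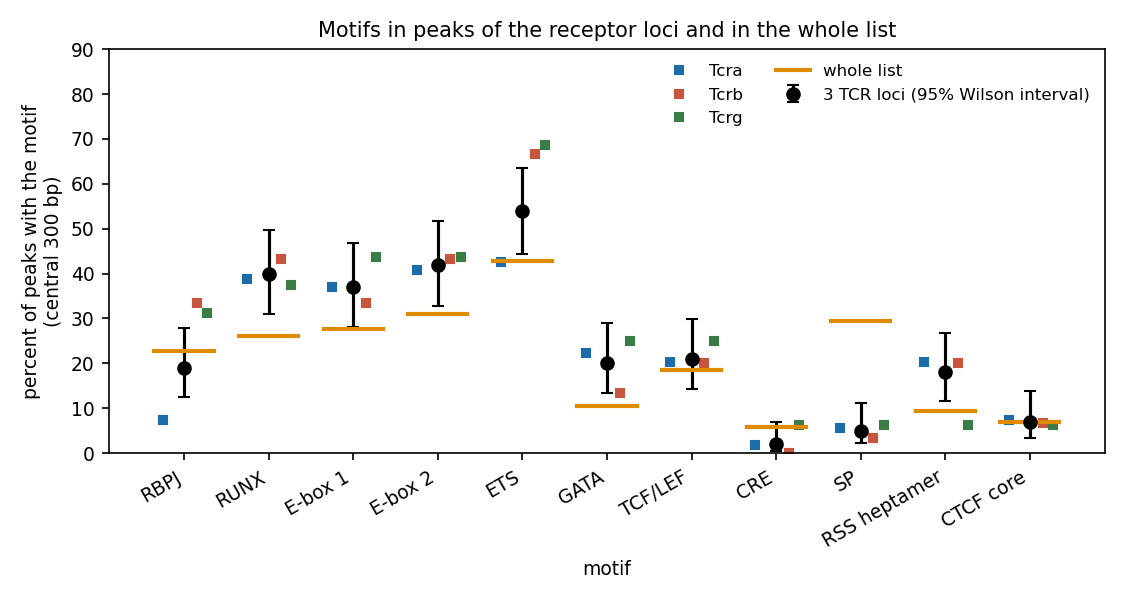
Percent of peaks with each motif in the central 300 bp for the 100 peaks of the 3 T-cell receptor loci (black, with 95% Wilson interval), for each locus (squares) and for all 32527 peaks (orange line). E-box 1 is CAGCTG and E-box 2 is CAGGTG, and RUNX and GATA lie above the list and SP below it.

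Igh V segments were nearly without peaks. Of the 16 Igh peaks 6 lay at the D-J-C end and 1 at a V segment, Ighv1-12 (chr12:115853343-115854337). A further peak at chr12:114648775-114649379 (605 bp) lay among the constant genes, 9699 bp from Ighm. Its neighbours were the genes Gm17421 and Gm11029, so it was not counted at the D-J-C end. Stretches of 1431 kb with 60 V segments and 890.7 kb with 45 V and 3 D segments had no peak, whereas the longest such stretch with V segments in the T-cell receptor loci was 341.5 kb with 9 V segments, from Trav2 to Trav6d-4. Between peaks of the same window, the longest in Tcrb was 178.7 kb over trypsinogen genes with no segment, and in Tcrg 38.1 kb. Stretches from a window edge to the nearest peak were not ranked. Those before the first Tcrb peak (chr6:40996623-40997359) and the first Tcrg peak (chr13:19230977-19231398) were longer, and the former holds Trbv1. At the Igh D-J-C end, 3 peaks stood in the interval of the 3′ enhancers, at chr12:114456031-114456416, chr12:114458739-114459011 and chr12:114460345-114461309, with others at chr12:114532608-114533224 and chr12:114725877-114726391. A wide peak at chr12:114662408-114663917 (1510 bp) lay in the Ighm to Ighj4 interval that holds the intronic enhancer, and 70.6% of its bases were GAGCT or GGGGT units on either strand, the repeats of a switch region.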

How the data were processed

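ATAC-Seq of Beko cells gave 6 libraries, grouped by their labels as 3 DMSO and 3 GSI. Per the labels and methods, the authors mapped reads to mm9 by HISAT2 2.2.1 with 1 alignment reported for each, dropped duplicates (Picard), ran MACS2 on every library with no input control, and retained peaks seen in 3 of the 6 libraries outside blacklisted regions. The deposited list gives start and end in bp. Its deposited score is 0 for every peak and measures nothing. A peak found under 1 treatment only can be kept, and the list does not say which.

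Coordinates are printed counted from 1. Segments came from the GENCODE annotation of NCBIM37 (the mm9 build), named and classed through RefSeq symbols from a table of another assembly, of which no coordinate was used. Of 234 T-cell receptor segments 227 matched a symbol. Sequences were read from NCBIM37. Copies were searched with minimap2 2.31, and the γ peaks were aligned with Biopython 1.88. Analyses used Python 3.11.15, numpy 2.4.6, scipy 1.17.1 and matplotlib 3.10.9, and were tested on simulated data.

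The windows, gene lists and comparisons were chosen with earlier results of these data known. Named were every peak at the D-J-C ends, every V segment with a peak (in Tcra the 10 with the widest) and the 2 widest peaks of each locus. Of the marker genes, 1 is not reported here. No p-value was computed, since a merged list has no replicates.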

Additional observations from a re-analysis of the deposited data

How the results depend on the processing

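No paired analysis was possible because no column of the merged list belongs to a library, although DMSO and GSI share replicate numbers in the labels, and for the same reason no library could be left out. Of 88 alternative values, 66 stayed within 1.5 times the count or within the 95% interval of the value reported, and 22 did not. With peaks of at least 500 bp only, 19 peaks remained in Tcra, 16 in Tcrb, 9 in Tcrg and 8 in Igh. Without peaks that have a near-identical copy, Tcra had 6.42 peaks per Mb, below the 12 of the list. With peaks counted within 5 kb, V segments with a peak rose to 82.6% in Tcrb and 47.9% in the 3 loci, and J segments to 28.6% in Tcrb, 6.33% in the 3 loci and 100% of the 4 in Igh. Over the whole peak, motif shares rose to 35% for RBPJ, 50% for RUNX, 56% for CAGCTG, 54% for CAGGTG, 65% for ETS, 36% for GATA, 33% for TCF/LEF and 27% for the heptamer, and in the central 200 bp they fell to 30% for RUNX, 30% for CAGGTG, 43% for ETS and 3% for the CTCF core. The windows searched were longer or shorter by construction. The list moved too, and CAGCTG, the heptamer and the GATA motif kept intervals above its share in all 3 windows, while for RUNX, ETS and CAGGTG the interval over the whole peak (40.4 to 59.6%, 55.3 to 73.6% and 44.3 to 63.4%) included its 41.4%, 63.8% and 49.8%. For CAGGTG the interval in the central 200 bp (21.9 to 39.6%) also included the list's 23.3%. The width alternatives, V segments without pseudogenes, and the share of peaks at the D-J-C end in covered bp stayed within their intervals.

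The list limits what can be said. It has no signal height, so a peak counts the same whether it was strong or weak, and it does not hold intervals called in only 1 or 2 libraries.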

Other observations

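Other genes inside the receptor windows were mostly without a peak at their start. Of 24 protein-coding genes that are no receptor segments, 2 had a peak within 1 kb of the 5′ end, against 43.9% of all protein-coding genes, the broadly expressed genes Dad1 next to Tcra and Stard3nl next to Tcrg. The 5 olfactory receptor genes at the distal end of Tcra, which are active in olfactory neurons, had none, and the nearest peaks lay 16685 to 67679 bp away. The 7 Prss and Try genes among the Tcrb segments had none at the 5′ end of the gene either. Most of these genes encode digestive proteases of the pancreas. Distances to the nearest peak were 1866 to 146237 bp. A peak of 367 bp (chr6:41264608-41264974) inside Try5 lay within 1 kb of another annotated start of that gene and was counted as a peak at the start of another gene.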
